A study of Mus musculus with 6 samples.

Results

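After 96 h of CAF-1 depletion, 41 genes of mouse myeloid progenitor cells were at least 2-fold lower than in the library taken before the hairpin was switched on. They were chosen among 4789 genes whose mean level reached 20 CPM (counts-per-million of the library) over 6 single-cell RNA-seq libraries, by a log2 ratio of −1 or less between CAF-1 OFF at 96 h and CAF-1 OFF at 0 h after 10 CPM were added to both levels. That is 0.856% of the genes. At least 2-fold higher by the same measure were 250 genes, or 5.22%. The values of this contrast selected the genes and are given as a description only. The 48 h library of the same arm is set against the same 0 h library, so its ratios are not independent of the choice. The HOXA9 OFF ratios were not used to choose them, although the levels of that arm entered the mean.

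The cells were granulocyte-macrophage progenitors immortalized with HOXA9 (iGMPs), grown from the bone marrow of Lys-GFP mice whose strain the labels spell C57BI/6. Every group carries the Hoxa9::ER fusion, the HOXA9 transcription factor joined to the hormone-binding part of an estrogen receptor with the G400V mutation, and a GFP reporter driven by the lysozyme promoter. At 0 h both arms grew with stem cell factor and 150 ng/ml β-estradiol, which keeps the fusion active. In CAF-1 OFF, 500 µM IPTG was added for 48 or 96 h to express a hairpin RNA against Chaf1b while estradiol stayed. In HOXA9 OFF, estradiol was washed out of control cells for 48 or 96 h, which lets them mature towards neutrophils. Each time point of each arm is 1 library, and the arms come from different clones, so that clone and arm cannot be told apart. With 1 library per group no difference could be tested, and all intervals below are 95% intervals for counting error only.

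CAF-1 is a histone chaperone that places newly made H3 and H4 on DNA behind the replication fork, and Chaf1b encodes its middle subunit. HOXA9, with its partner MEIS1, keeps early myeloid cells dividing and holds back their maturation. A dividing progenitor draws on glycolysis, lipid and nucleotide synthesis, mitochondrial biogenesis and protein folding, and a neutrophil that leaves the cell cycle lowers much of this. The 41 genes are ordered below by roles given to them once they were known, so the groups are a way to read them and not a result.

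The Chaf1b transcript was 11.1-fold lower (6.76 to 19.2) after 48 h of the hairpin and 5.49-fold lower (3.78 to 8.17) after 96 h. Without the hairpin against it, it was also 3.38-fold and 45.4-fold lower in HOXA9 OFF. Between 473 and 1510 cells per library were kept, with 3524285 to 5589486 UMIs (unique molecular identifiers, 1 per captured transcript) in all. The cell filter, with limits on the number of genes and on mitochondrial UMIs, removed 41.7%, 18.3% and 14.5% of the barcodes in CAF-1 OFF, but 66.2% in HOXA9 OFF at 0 h and 0.198% at 96 h. Of 5856 barcode sequences, 16 occurred in more than 1 library. Median UMIs per cell lay between 5956 and 6571 in CAF-1 OFF, and were 8660, 3535.5 and 2043.5 in HOXA9 OFF. Markers fixed for other cell types also moved. The summed level of 11 late granulocyte genes was 33.9, 721.7 and 1201 CPM over the CAF-1 time points and 31.0, 10480 and 144700 CPM over those of HOXA9 OFF. In CAF-1 OFF the summed megakaryocyte markers went from 51.0 to 2721 CPM and those of mast cells and basophils from 260.5 to 4008 CPM. The 8 markers of the labelled progenitors summed to 7459, 8958 and 11340 CPM in CAF-1 OFF, although 5 of them had a log2 ratio below 0 at 96 h, the median ratio was −0.07 and Meis1, 1 of the 41, was at least 2-fold lower. In HOXA9 OFF they summed to 6597, 3989 and 117.2 CPM, with all 8 at least 2-fold lower at 96 h, beside 39.8% of all tested genes. The part of these shifts in the values below was not tested.

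**Figure D1:**
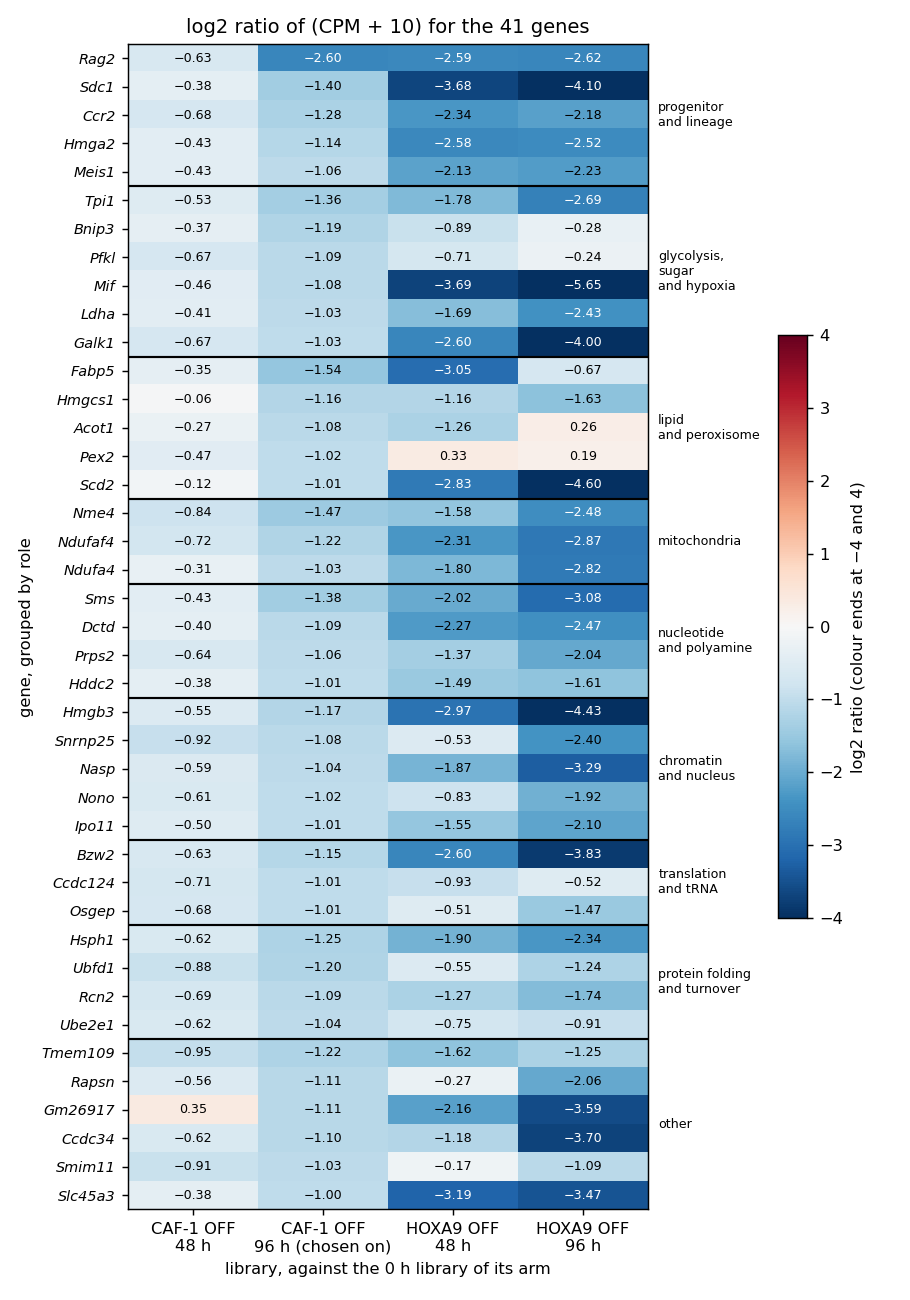
Log2 ratio of (CPM + 10) to the 0 h library of the same arm for the 41 genes, in rows grouped by role, with 1 column per library and blue for lower. The second column was used to choose the genes; in HOXA9 OFF at 96 h, 34 of the 41 are at −1 or below, beside 39.8% of all tested genes, and Acot1 and Pex2 are above 0.

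Together the 41 genes held 1.03%, 0.754% and 0.457% of the UMIs in CAF-1 OFF at 0, 48 and 96 h. In HOXA9 OFF they held 1.02%, 0.25% and 0.149%. The uninduced libraries thus started alike, and the CAF-1 OFF library at 96 h lay above both later HOXA9 OFF libraries. By UMI number, Ndufa4, Mif and Ldha weighed most in these sums. Without them the shares were 0.504%, 0.346% and 0.203% under CAF-1 depletion and 0.487%, 0.142% and 0.0976% in HOXA9 OFF.

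Among the progenitor and lineage genes, Rag2 stood apart. It encodes a subunit of the recombinase that cuts antigen receptor genes in lymphocyte precursors. Rag2 was at 57.2, 33.5 and 1.11 CPM over the CAF-1 course, meaning the CAF-1 OFF libraries at 0, 48 and 96 h in this order. Without estradiol it stood at 51.3 and 0.188 CPM at 0 and 48 h and had no UMI at 96 h. The 96 h library of CAF-1 OFF held 6 UMIs against 241 at 0 h, which is 51.4-fold lower (23.3 to 141.5), and no other of the 41 was more than 4.70-fold lower there. In HOXA9 OFF Rag2 was at least 60.3-fold lower at 96 h, taken against a floor of 3 counts. At equal depth, with each cell thinned to 1300 UMIs, 9.48% of cells (7.31 to 12.03) had a Rag2 UMI in CAF-1 OFF at 0 h, 4.74% (3.45 to 6.33) at 48 h and 0.222% (0.0269 to 0.799) at 96 h. Unthinned, these shares were 27.7%, 15.2% and 0.659%. In the other uninduced library, HOXA9 OFF at 0 h, the thinned share was 4.24% (2.61 to 6.47), near that of CAF-1 OFF at 48 h. Its unthinned share was 31.5%. The thinned difference between 0 and 48 h is thus no larger than that between the uninduced libraries, but the values from all UMIs differ from this. By these, Rag2 was 1.71-fold lower (1.41 to 2.08) at 48 h than at 0 h in CAF-1 OFF. Between the uninduced libraries it was 1.11-fold lower (0.923 to 1.35) in HOXA9 OFF. Its partner Rag1, on the same chromosome, was at or below 0.716 CPM in all 6 libraries. The 8 lymphoid markers, to which Rag2 does not belong, summed to 279.7, 384.8 and 458.4 CPM over the CAF-1 course and to 346.5, 27.3 and 1.70 CPM over the HOXA9 course. Of these 8, Cd3e had no UMI in any library and 2 were tested. At 96 h of CAF-1 OFF, 1 of these 2 was at least 2-fold higher, beside 5.22% of all tested genes.

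Meis1 and Hmga2 belong to the list of HOXA9-linked genes, the first as the DNA-binding partner of HOXA9, the second as a chromatin protein of fetal and immature cells. Meis1 was at 45.6, 31.3 and 16.7 CPM over the CAF-1 course and at 50.1, 3.77 and 2.84 CPM over the HOXA9 course. Hmga2 was at 47.9, 33.1 and 16.3 CPM over the CAF-1 course and at 62.1, 2.07 and 2.55 CPM over the HOXA9 course. Both were thus nearly at their 96 h level after 48 h without estradiol, but went down in steps after the hairpin was induced. The rest of the list did not share this in CAF-1 OFF. Of its 16 tested genes, 2 were at least 2-fold lower at 96 h and 2 at least 2-fold higher, beside 0.856% and 5.22% of all tested genes. The median ratio was −0.08, the same as the −0.08 over all tested genes.

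Ccr2 encodes the receptor for the chemokine CCL2 that draws monocytes out of the marrow. It was at 501.1, 309.3 and 201.0 CPM over the CAF-1 course and at 347.7, 60.6 and 68.9 CPM over the HOXA9 course. Sdc1, the surface proteoglycan syndecan-1, was at 216.9, 164.2 and 76.0 CPM over the CAF-1 course and at 166.3, 3.77 and 0.284 CPM over the HOXA9 course. The 2 surface genes were thus below their 0 h level at both later times in both arms. In HOXA9 OFF, Ccr2 was no lower at 96 h than at 48 h. The list of chemokines, cytokines and their receptors moved otherwise in CAF-1 OFF at 96 h. There 5 of 14 tested were at least 2-fold higher, beside 5.22% of all tested genes. Ccr2 alone was at least 2-fold lower, and the median ratio was 0.70, beside −0.08 over all tested genes. The 7 tested monocyte and dendritic cell markers had a median of 0.46 there, and Ccr2 is 1 of them.

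The sugar and hypoxia group holds enzymes of glycolysis and neighbouring genes. Tpi1, triosephosphate isomerase, was at 537.7, 369.6 and 203.2 CPM over the CAF-1 course and at 543.4, 151.0 and 75.5 CPM over the HOXA9 course. Ldha, which turns pyruvate into lactate, was at 1028, 773.2 and 497.2 CPM over the CAF-1 course and at 961.8, 291.1 and 170.0 CPM over the HOXA9 course. For both genes each library was lower than the one before it in its arm, and the intervals of neighbouring libraries did not overlap. Pfkl, the liver form of phosphofructokinase, was at 75.5, 43.8 and 30.2 CPM over the CAF-1 course. Over the HOXA9 course it was at 59.7, 32.6 and 49.1 CPM, where the interval at 96 h (42.1 to 57.0) overlapped that at 0 h (52.5 to 67.5). Bnip3, a mitochondrial outer membrane protein that marks mitochondria for degradation and is induced by low oxygen, was at 80.2, 59.6 and 29.5 CPM over the CAF-1 course. Over the HOXA9 course it was at 81.6, 39.4 and 65.3 CPM. Without estradiol, Pfkl and Bnip3 were thus higher at 96 h than at 48 h, whereas Tpi1 and Ldha were lower.

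Mif, a secreted cytokine with tautomerase activity, was at 1693, 1225 and 794.0 CPM over the CAF-1 course and at 2079, 152.2 and 31.5 CPM over the HOXA9 course. The arms differed widely in size, with a 2.13-fold (2.05 to 2.22) lower level in the first and a 66.0-fold (54.8 to 80.3) lower level in the second at 96 h. Galk1, which phosphorylates galactose, was at 187.9, 114.5 and 87.1 CPM over the CAF-1 course and at 209.1, 26.2 and 3.69 CPM over the HOXA9 course. In the fixed list of glycolysis and hypoxia genes, 14 were tested and all 14 had a ratio below 0 in CAF-1 OFF at 96 h. Pfkl, Tpi1, Ldha and Bnip3 were at least 2-fold lower, beside 0.856% of all tested genes. The median ratio of the list was −0.38, and in HOXA9 OFF at 96 h it was −0.30, beside −0.08 and −0.56 over all tested genes. Most of all tested genes were thus below 0 too.

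The lipid and peroxisome group holds 5 genes. Hmgcs1, the cytosolic synthase that feeds the mevalonate pathway to cholesterol, was at 73.1, 69.6 and 27.1 CPM over the CAF-1 course and at 85.9, 33.0 and 21.0 CPM over the HOXA9 course. Scd2, a desaturase that makes monounsaturated fatty acids, was at 252.7, 231.7 and 120.5 CPM over the CAF-1 course and at 260.6, 28.1 and 1.14 CPM over the HOXA9 course. In both genes the interval at 48 h of CAF-1 OFF overlapped that at 0 h, while the 96 h interval lay below. The fold of Scd2 at 48 h, 1.09-fold lower, had an interval just past 1 (1.005 to 1.184). The fixed list of cholesterol and fatty acid synthesis includes both. Its 18 tested genes had a median ratio of −0.05 at 48 h, when 10 were below 0, and of −0.65 at 96 h, when 17 were below 0 and 2 at least 2-fold lower. The medians over all tested genes were 0 and −0.08 at these times. At 48 h, 2387 of all 4789 were below 0. Most were at 96 h, when 0.856% were at least 2-fold lower. In HOXA9 OFF the medians of the list were −0.66 and −1.69, beside −0.23 and −0.56 over all tested genes.

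Fabp5, a carrier of fatty acids in the cytosol, was at 168.9, 130.1 and 51.5 CPM over the CAF-1 course and at 229.6, 19.02 and 140.5 CPM over the HOXA9 course. Acot1, a thioesterase that releases fatty acids from coenzyme A, was at 54.3, 43.3 and 20.4 CPM over the CAF-1 course and at 54.9, 17.1 and 67.8 CPM over the HOXA9 course. Both had their lowest HOXA9 OFF level at 48 h and were higher again at 96 h. Pex2, a ubiquitin ligase of the peroxisomal import machinery, was at 63.6, 43.3 and 26.3 CPM over the CAF-1 course. Over the HOXA9 course it was at 51.3, 67.0 and 60.1 CPM, with the 48 h level 1.31-fold that of 0 h (1.10 to 1.55).

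**Figure D2:**
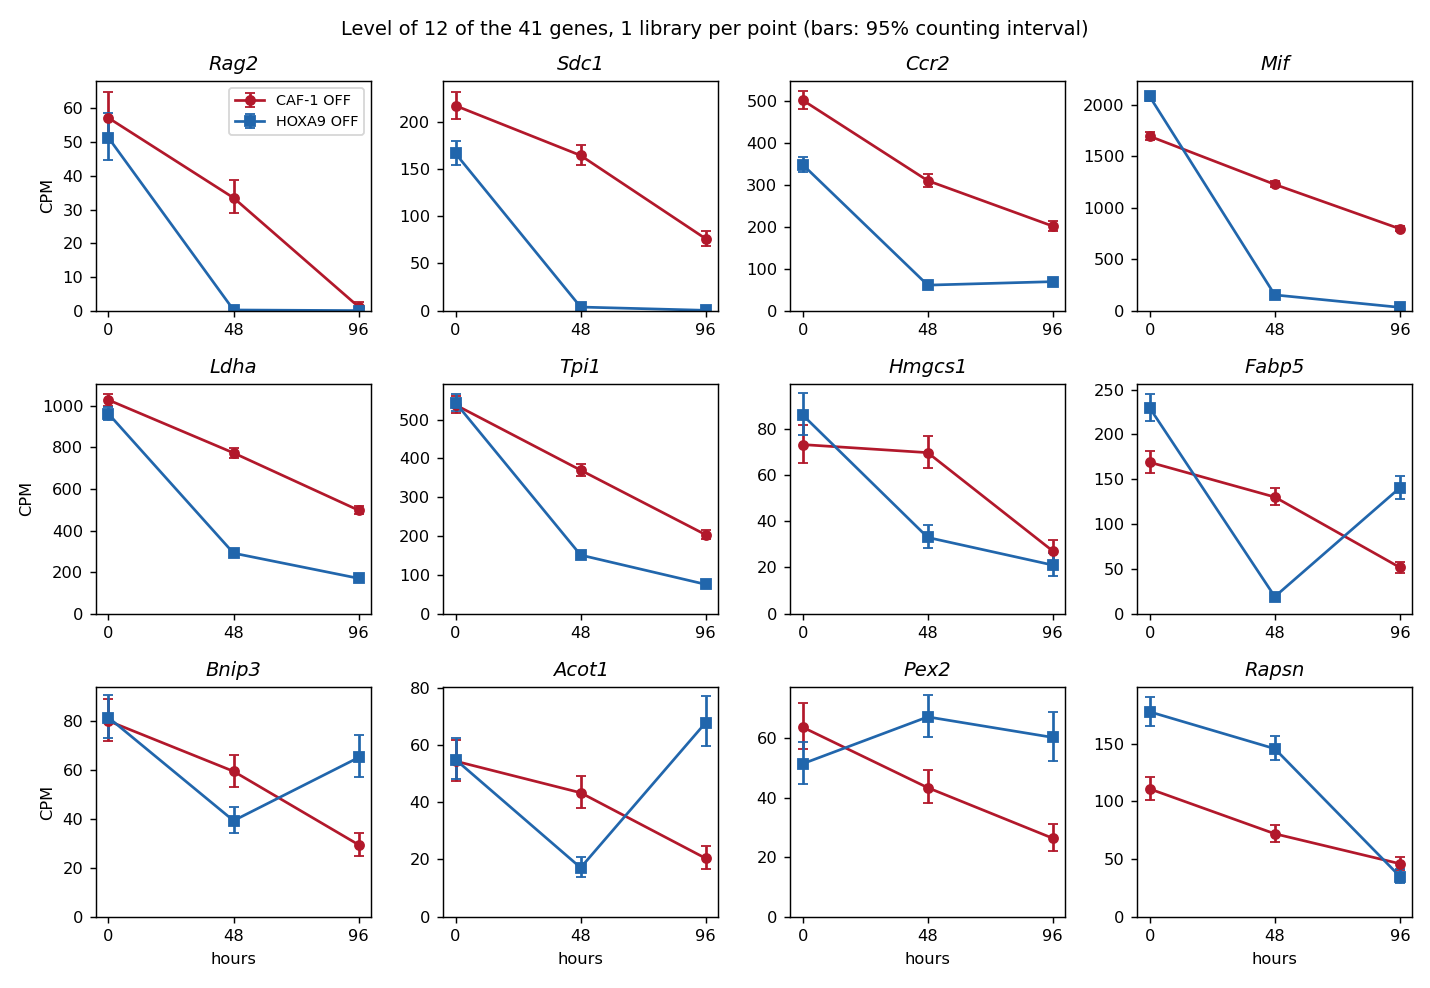
Level in CPM, on an axis from 0, of 12 of the 41 genes against hours of induction in CAF-1 OFF (red circles) and HOXA9 OFF (blue squares), 1 library per point, with exact 95% Poisson intervals as bars. The CAF-1 OFF lines go down throughout. In HOXA9 OFF, Fabp5, Bnip3, Acot1 and, by little, Ccr2 are higher at 96 h than at 48 h, and Pex2 stays between 51.3 and 67.0 CPM.

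Mitochondrial proteins gave 3 genes. Ndufa4, a subunit of cytochrome c oxidase, was at 2579, 2079 and 1254 CPM over the CAF-1 course and at 2238, 634.0 and 309.3 CPM over the HOXA9 course. Ndufaf4, an assembly factor of complex I, was at 100.8, 57.2 and 37.6 CPM over the CAF-1 course and at 90.2, 10.2 and 3.69 CPM over the HOXA9 course. Nme4, a nucleoside diphosphate kinase of mitochondria, was at 42.7, 19.5 and 9.08 CPM over the CAF-1 course, and without estradiol at 45.8 and 8.66 CPM at 0 and 48 h with no UMI at 96 h. All 3 were lower at each time in both arms. Of the 18 nuclear encoded oxidative phosphorylation genes tested, Ndufa4 was the 1 at least 2-fold lower after 96 h of the hairpin, and the list had a median of −0.22. The 14 tested genes of mitochondrial import and chaperones were all below 0 with a median of −0.58, and 0 were at least 2-fold lower. Over all tested genes the median there was −0.08, so that most were below 0 too, and 0.856% were at least 2-fold lower.

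Nucleotide and polyamine metabolism gave 4 genes. Sms, spermine synthase, was at 109.9, 78.7 and 36.0 CPM over the CAF-1 course and at 112.9, 20.3 and 4.54 CPM over the HOXA9 course. Dctd, the deaminase that supplies dUMP for thymidine synthesis, was 2.76-fold lower (2.16 to 3.54) after 96 h of the hairpin and had no UMI after 96 h without estradiol, at least 53.3-fold lower. Prps2, which makes the ribose donor of nucleotides, and the nucleotidase Hddc2 were 2.75-fold and 2.35-fold lower in CAF-1 OFF. In HOXA9 OFF at 96 h these were 31.5-fold (12.1 to 117.3) and 4.92-fold (3.49 to 7.09) lower. The 4 genes had ratios between −0.64 and −0.38 after 48 h of the hairpin and between −2.27 and −1.37 after 48 h without estradiol.

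Nuclear proteins gave 5 genes. Hmgb3, a DNA-bending protein of progenitor cells, was at 209.0, 139.5 and 87.3 CPM over the CAF-1 course and at 212.4, 18.5 and 0.284 CPM over the HOXA9 course. Nasp, a chaperone that holds soluble H3 and H4, was at 178.9, 115.4 and 82.1 CPM over the CAF-1 course and at 149.4, 33.7 and 6.24 CPM over the HOXA9 course. Nasp stands in 2 of the fixed lists. It was the 1 gene at least 2-fold lower in CAF-1 OFF at 96 h among 23 tested S phase genes, whose median was −0.50. The same held among 18 tested histone chaperone and heterochromatin genes, whose median was −0.33. Over all tested genes, 0.856% were that much lower and the median was −0.08. Chaf1b, the target of the hairpin, stands in both lists and was lower too, but was not among the genes chosen. It was chosen with a total that leaves out mitochondrial and ribosomal protein genes, and with cells thinned to 1300 UMIs. Snrnp25, of the minor spliceosome, was 2.35-fold lower, the paraspeckle protein Nono 2.12-fold and the import receptor Ipo11 2.62-fold in CAF-1 OFF at 96 h. In HOXA9 OFF at 96 h, the 5 genes had ratios between −4.43 and −1.92.

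For translation and its tRNAs, Bzw2, which competes with initiation factor eIF5, was at 175.8, 110.0 and 74.0 CPM over the CAF-1 course and at 144.4, 15.4 and 0.851 CPM over the HOXA9 course. Ccdc124, a ribosome-binding protein, was at 146.9, 85.9 and 67.7 CPM over the CAF-1 course and at 135.3, 66.5 and 91.4 CPM over the HOXA9 course. Osgep, the catalytic subunit of the complex that modifies tRNAs reading ANN codons, was 2.26-fold lower (1.92 to 2.68) in CAF-1 OFF at 96 h and 3.66-fold (2.82 to 4.81) in HOXA9 OFF. Of the 26 tested Myc and nucleolar ribosome biogenesis genes, 25 had a ratio below 0 in CAF-1 OFF at 96 h and 0 were at least 2-fold lower. Their median was −0.57, beside −0.08 over all tested genes, most of which were thus below 0 too. Of all tested genes, 0.856% were at least 2-fold lower.

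Protein folding and turnover gave 4 genes. Hsph1, a partner of Hsp70 that exchanges its nucleotide, was at 49.8, 28.8 and 15.2 CPM over the CAF-1 course and at 49.2, 5.84 and 1.70 CPM over the HOXA9 course. Ubfd1, a ubiquitin-like domain protein, was at 44.6, 19.7 and 13.7 CPM over the CAF-1 course and at 36.3, 21.7 and 9.65 CPM over the HOXA9 course. Ube2e1, a ubiquitin-conjugating enzyme, was at 197.6, 125.4 and 91.2 CPM over the CAF-1 course and at 193.5, 111.1 and 98.2 CPM over the HOXA9 course. For Ube2e1 the intervals of the 96 h levels overlapped between the arms (83.3 to 99.6 and 88.1 to 109.1 CPM). Rcn2, a calcium-binding protein of the endoplasmic reticulum, was 2.61-fold lower in CAF-1 OFF and 6.91-fold in HOXA9 OFF at 96 h. Of the 14 tested heat shock and unfolded protein genes, Hsph1 was the 1 at least 2-fold lower in CAF-1 OFF at 96 h, beside 0.856% of all. In all, 6 of the 14 had a ratio below 0 there, and 2 were at least 2-fold higher, beside 5.22% of all tested genes. This list had a median of 0.17, while its summed level was 10150 CPM at 0 h and 8295 CPM at 96 h.

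The other genes share no role. Tmem109, a transmembrane protein, was at 45.8, 18.96 and 13.9 CPM over the CAF-1 course and at 33.4, 4.14 and 8.23 CPM over the HOXA9 course. Rapsn, known for clustering acetylcholine receptors at the muscle synapse, was at 110.8, 71.9 and 46.0 CPM over the CAF-1 course and at 177.6, 145.6 and 34.9 CPM over the HOXA9 course. Rapsn was late in HOXA9 OFF, with a ratio of −0.27 at 48 h and −2.06 at 96 h, and Smim11 was likewise at −0.17 and −1.09. The 48 h ratios of both turned above 0 under 2 of 10 other settings. Ccdc34 was 2.27-fold lower in CAF-1 OFF and 41.1-fold (24.8 to 73.8) in HOXA9 OFF at 96 h. The transcript Gm26917 was at 207.4, 267.5 and 90.8 CPM over the CAF-1 course, the only one of the 41 with a higher level at 48 h than at 0 h, and at 243.7, 46.9 and 11.1 CPM over the HOXA9 course. Slc45a3, a solute carrier, differed before any induction, with 36.1 CPM in one uninduced library, that of CAF-1 OFF, and 103.6 CPM in that of HOXA9 OFF, and ended at 12.98 and 0.284 CPM.

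The uninduced libraries of the arms are 1 pair without induction, but from different clones, and the filter removed 41.7% and 66.2% of their barcodes. Their difference thus mixes library, clone and filter. The 41 were chosen against the 0 h library of CAF-1 OFF, so their ratios between the 0 h libraries are not independent of the choice. Slc45a3 was the 1 gene of the 41 whose level was 2-fold or more higher before estradiol withdrawal, among 0.752% of all tested genes, and 0 were at least 2-fold lower, among 0.146%. The median ratio between the 0 h libraries was −0.10 for the 41 and −0.04 for all tested genes. All 41 were lower in CAF-1 OFF at 96 h than in either 0 h library, as were 2372 of all 4789. With the HOXA9 OFF library at 0 h as the reference, 22 of the 41 stayed at least 2-fold lower in CAF-1 OFF at 96 h. Ccr2, Bzw2, Ndufa4 and Ldha were among the 19 that did not.

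The size limit cut through a dense part of the ratios. Just inside it were Osgep (−1.01), Hddc2 (−1.01), Scd2 (−1.01), Ipo11 (−1.01) and Slc45a3 (−1.0035). Just outside were Zfp593 (−0.99), the fatty acid synthase Fasn (−0.99), Tsfm (−0.98), Trim28 (−0.97) and Cacybp (−0.97). For 29 of the 41 the counting interval of the fold between 0 and 96 h lay past 2-fold, and for 12 it reached under 2-fold. With 1.5-fold as the size, 421 genes would be chosen. Rag2, Fabp5, Sdc1, Tpi1 and Mif were the 5 genes chosen under each of 10 other settings of scaling, cell filter, added CPM and reference.

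Within CAF-1 OFF most of the 41 genes were already lower at 48 h than at 0 h. The 48 h ratios share the 0 h library with the choice, so this can in part follow from it. The median ratio of the 41 was −0.56 at 48 h, beside 0 over all tested genes, and −1.09 at 96 h by the choice. At 48 h, 40 of 41 had a ratio below 0, as did 2387 of all 4789, and 0 of the 41 were at least 2-fold lower, beside 0.0418% of all. The lowest ratio at 48 h was that of Tmem109 (−0.95), followed by Snrnp25 (−0.92) and Smim11 (−0.91), and the highest that of Gm26917 (0.35). The larger step came between 0 and 48 h in 20 genes and between 48 and 96 h in 21. Between 48 and 96 h, Rag2 had the largest step (−1.97), before Gm26917 (−1.46) and Fabp5 (−1.19), while Smim11 (−0.13) and Snrnp25 (−0.16) had the smallest steps. Since the 2 steps must add up to −1 or less, a gene with a small first step had to have a large second one.

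**Figure D3:**
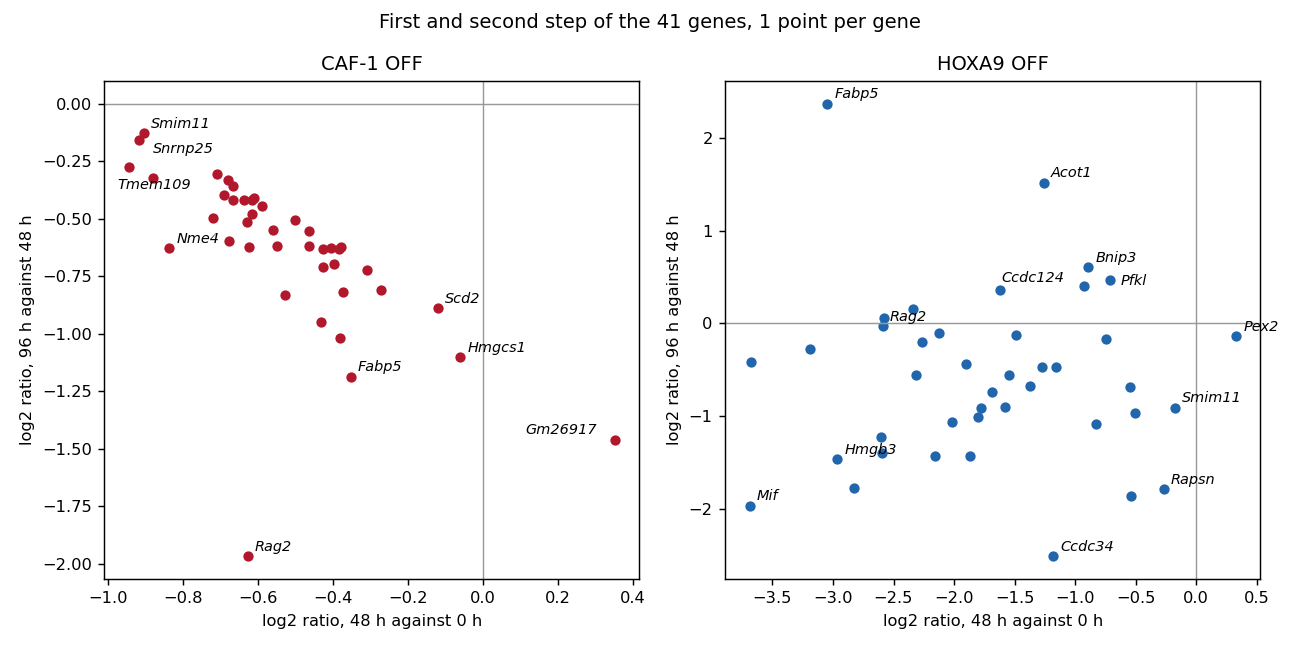
Each point is 1 of the 41 genes, with the log2 ratio of 48 h to 0 h across and that of 96 h to 48 h upward, on linear axes that differ between CAF-1 OFF (left) and HOXA9 OFF (right). In CAF-1 OFF all points lie below 0 on the second axis and the slanted edge comes from the choice of the genes; in HOXA9 OFF 8 points lie above 0, with Fabp5 and Acot1 highest.

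The choice used no ratio of HOXA9 OFF, but the levels of this arm counted towards the mean of 20 CPM. A high uninduced level there could thus help a gene past that limit and also make its later ratios lower. Slc45a3 started at 103.6 CPM there, against 36.1 CPM in the other uninduced library. Tmem109, Nme4, Prps2 and Ipo11 had means between 20.7 and 22.9 CPM, close to the limit. The next counts include these genes and are not fully independent of the choice. Of the 41 genes, 30 (73.2%) were at least 2-fold lower at 48 h, beside 19.6% of all tested genes, and 34 (82.9%) at 96 h, beside 39.8%. Those 30 and 34 genes are 3.19% and 1.78% of the genes at least 2-fold lower at these times. None of the 41 was at least 2-fold higher at 96 h, where 18.1% of all tested genes were, and the highest ratio at 48 h was 0.33 (Pex2). The median ratio of the 41 was −1.69 at 48 h and −2.34 at 96 h, beside −0.23 and −0.56 over all. These background shares depend on the scaling. With TMM factors, 30.1% of all genes were at least 2-fold lower and 25.6% higher at 96 h, the median of all genes was −0.13, and 31 of the 41 were at least 2-fold lower with a median of −2.04. With median-of-ratios factors, 28.6% were lower and 27.02% higher, and again 31 of the 41 were lower. Ribosomal protein genes held 8.44% of UMIs in HOXA9 OFF at 96 h against 27.1% at 0 h. With a total that leaves out these and the mitochondrial genes, the shares moved the other way, to 46.55% lower and 13.6% higher with a median of −0.86 over all genes, and 36 of the 41 were at least 2-fold lower with a median of −2.79.

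**Figure D4:**
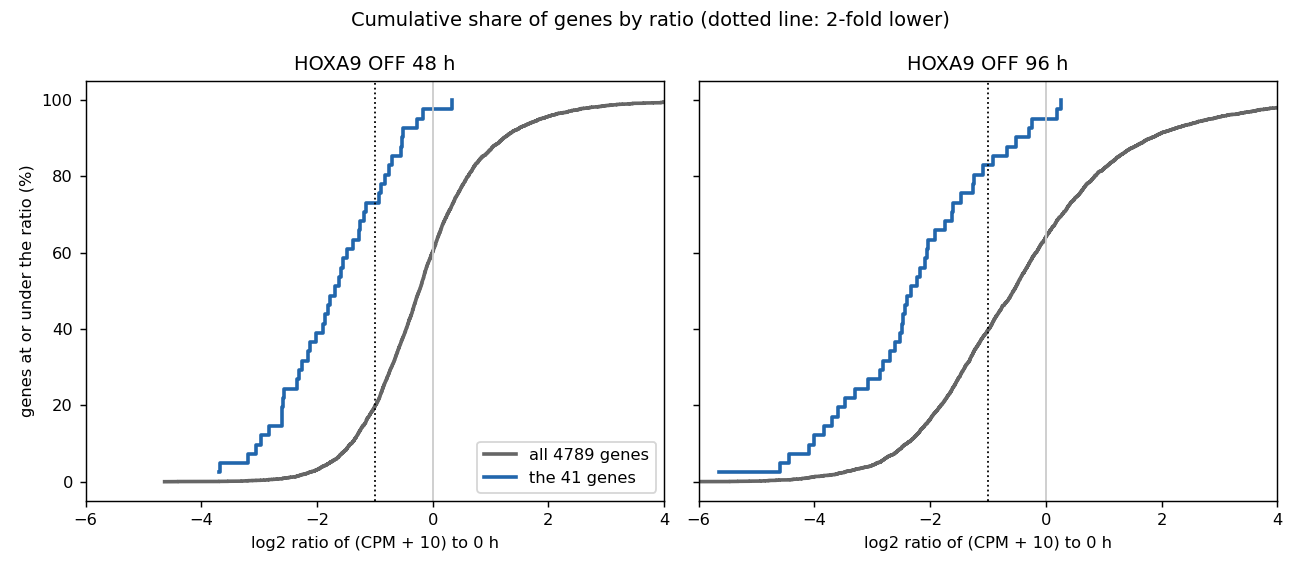
Share of genes (%) at or under each log2 ratio of (CPM + 10) in HOXA9 OFF at 48 h (left) and 96 h (right), for the 41 genes (blue) and all 4789 tested genes (grey), with the dotted line at 2-fold lower. The blue line crosses it at 73.2% and 82.9%, the grey line at 19.6% and 39.8%.

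The lowest ratios in HOXA9 OFF at 96 h were those of Mif (−5.65), Scd2 (−4.60), Hmgb3 (−4.43) and Sdc1 (−4.10). Rag2, Nme4 and Dctd had no UMI there. At both times 28 of the 41 were at least 2-fold lower, as were 911 of all 4789. Levels at 96 h were lower than at 48 h in 33 genes and higher in 8, beside 3118 and 1667 of all 4789, with a median ratio between these times of −0.56 beside −0.29 over all. Of the 8, Fabp5 (2.37) and Acot1 (1.52) had the largest increase in ratio, followed by Bnip3 (0.61). For 34 of the 41 the level at 96 h was lower in HOXA9 OFF than in CAF-1 OFF, as for 3076 of all 4789.

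The 7 genes that were not at least 2-fold lower in HOXA9 OFF at 96 h were Fabp5 (−0.67), Bnip3 (−0.28), Pfkl (−0.24), Acot1 (0.26), Ube2e1 (−0.91), Pex2 (0.19) and Ccdc124 (−0.52). Of these, Fabp5, Acot1 and Pex2 act in lipid handling or the peroxisome, and Bnip3 and Pfkl belong to the hypoxia and glycolysis list. The signs near 0 follow the scaling. With a total that leaves out mitochondrial and ribosomal protein genes, Acot1 was at −0.08 and Pex2 at −0.15, and with median-of-ratios factors they were at 0.76 and 0.68 while Bnip3 and Pfkl turned to 0.22 and 0.24. As a ratio of CPM, Acot1 was 1.24-fold higher (1.03 to 1.49), while the interval of Pex2 (0.965 to 1.42) held 1.

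To see how the lower sums were spread over cells, each cell was thinned to 1300 UMIs and the UMIs of the 41 genes were added up. The median cell had 13 such UMIs (10th to 90th percentile 8 to 19) in CAF-1 OFF at 0 h, 10 (5 to 15) at 48 h and 5.5 (2 to 10) at 96 h. In HOXA9 OFF the medians were 13 (8 to 19), 3 (1 to 6) and 1 (0 to 4). The whole distribution moved in CAF-1 OFF, where 98.3% of the cells at 96 h lay at or under the uninduced median of 13, against 53.55% at 0 h. The genes were chosen as lower in this pair of libraries, so a lower sum at 96 h follows from the choice. These values only describe its spread over cells. A sum of 0 was found in 0.887% of cells in CAF-1 OFF and in 20.1% in HOXA9 OFF at 96 h. Thinning left out 9 cells of CAF-1 OFF and 134 of HOXA9 OFF at 96 h, which held fewer UMIs. Without Ndufa4, Mif and Ldha the medians were 6, 4 and 2 under CAF-1 depletion and 6, 1 and 1 in HOXA9 OFF. The unthinned mean was 67.4, 45.5 and 27.1 UMIs per cell under CAF-1 depletion and 89.9, 9.46 and 3.47 in HOXA9 OFF.

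**Figure D5:**
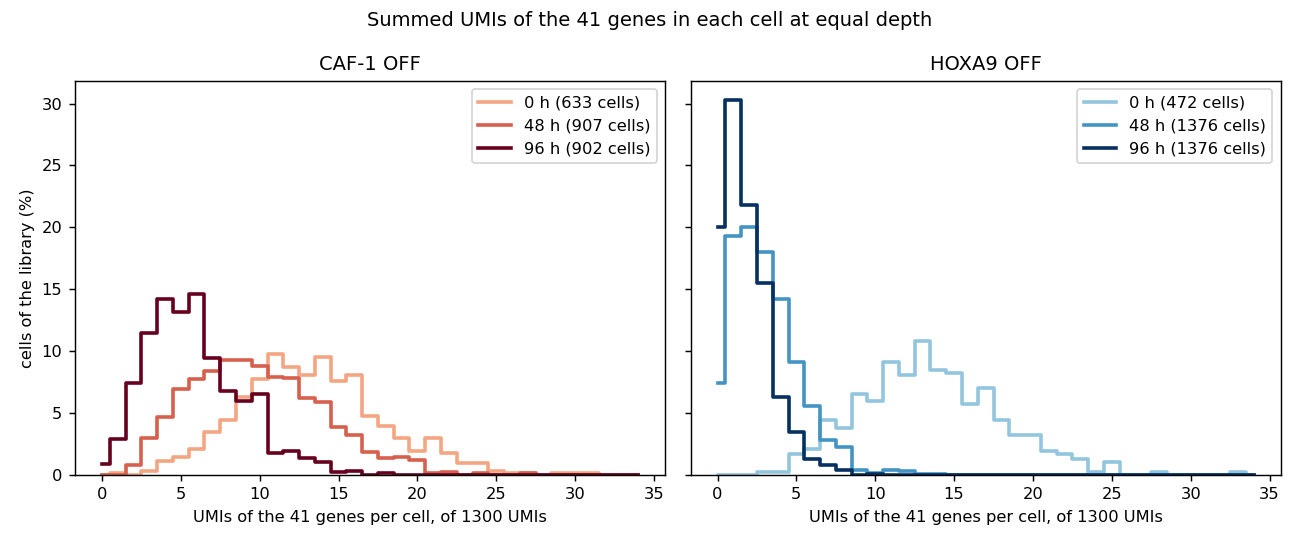
Share of a library's cells (%) against the summed UMIs of the 41 genes per cell after thinning to 1300 UMIs, for CAF-1 OFF (left) and HOXA9 OFF (right), with darker lines for later times. The CAF-1 OFF curve moves as a whole from a median of 13 to 10 and 5.5, and the HOXA9 OFF curve to 3 and 1. The lower sums of CAF-1 OFF at 96 h follow from the choice of the genes.

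Single genes showed the same at equal depth. A Mif UMI was found in 85.9% of cells (83.0 to 88.6) in CAF-1 OFF at 0 h and in 60.6% (57.4 to 63.9) at 96 h, and in HOXA9 OFF in 90.04% and 2.91% (2.09 to 3.94). Unthinned, these were 98.8%, 93.0%, 99.4% and 5.10%. Ldha was found in 69.4% and 44.2% of cells in CAF-1 OFF and in 67.4% and 16.9% in HOXA9 OFF at 0 and 96 h. Free RNA of other cells can give such UMIs, and no cell type without these genes was at hand to set a background.

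The ratios were also taken apart by a mark of the cell cycle. The summed level of 25 G2/M genes was 4434, 4773 and 4471 CPM over the CAF-1 course and 4306, 2392 and 927.3 CPM over the HOXA9 course, while that of 25 S phase genes was 3468, 3279 and 2622 CPM and 3142, 1120 and 250.8 CPM. After thinning, 95.1% of cells had a UMI of a G2/M gene before induction of the hairpin and 92.5% after 96 h. These cells are nearly the whole of both libraries, and the ratios at 96 h come from the contrast that chose the genes, so the next values are a description only. Among cells with such a UMI the 41 genes had a median ratio of −1.08 at 96 h, with 35 at least 2-fold lower, and among the 31 and 68 cells without one −1.35, with 32 lower. In HOXA9 OFF at 96 h the medians were −2.41 in cells with a G2/M UMI and −2.23 in cells without one. Such a UMI was found in 92.4% of HOXA9 OFF cells at 0 h and still in 67.7% at 96 h. The summed G2/M level was much lower by then, so 1 such UMI does not mark a dividing cell. Only 36 cells of HOXA9 OFF at 0 h lacked one. The values therefore do not compare dividing with resting cells.

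The 41 genes were spread over the genome. Of them, 40 were placed in the GRCm38.p6 annotation of RefSeq, the build of the files, and lay on 18 chromosomes, with 0 pairs of direct neighbours among the tested genes. Rag2 lies at chr2:101624712-101632528, Mif at chr10:75859353-75860277, Ccr2 at chr9:124101918-124109140 and Ldha at chr7:46842274-46855627, all as protein-coding genes. The 78 tested genes next to a member had a median ratio of −0.13 in CAF-1 OFF at 96 h, and 0 were at least 2-fold lower. Some neighbours were higher, with a ratio of 1.70 for Ccr1 beside Ccr2 and of 1.61 for H3f3b, a gene of the histone variant H3.3, beside Galk1.

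Promoter sequence was read from 250 bases before to 50 bases after the start in RefSeq, which was at hand for 36 of the 41 and for 3715 of the tested genes. The letters of 16 short motifs were searched on both strands. CACGTG, the palindromic E-box bound by MYC and related factors, was in 8 of 36 promoters, 22.2% (10.1 to 39.1), beside 11.3% of all 3715. These were the promoters of Sms, Hsph1, Ubfd1, Bnip3, Bzw2, Ldha, Galk1 and Osgep. CCAAT, bound by NF-Y, was in 21 promoters, 58.3% (40.8 to 74.5), beside 40.1%. The ETS letters CCGGAAG were in 4, 11.1% (3.11 to 26.1), beside 23.2%, and the GC box GGGCGG in 72.2% beside 65.5%. The GATA letters AGATAA were in 13.9% beside 6.11%, the TATA box TATAAA in 2.78% beside 7.30%, and the CRE TGACGTCA in 5.56% beside 3.61%. The C/EBP letters TTGCGCAA and TTGCATCA, the HOX letters TGATTTAT and TGATTGAT, the RUNX letters AACCACA and the E2F letters TTTGGCGC were in none of the 36, and each was in at most 3.66% of all. A second E2F form, TTTCGCGC, was in 1. The hypoxia response core ACGTG, which every CACGTG contains, was in 36.1% beside 27.4%. The sterol element CACCCCAC was in 5.56% (0.68 to 18.7) beside 2.83%, in the promoters of Sdc1 and Hmgcs1. For Scd2 no promoter sequence was at hand. These 2 motifs, ACGTG and CACCCCAC, were added once the genes were known. Median GC content was 59.0% beside 60.7%, and the median number of CpG was 19.5 beside 21. A match describes the letters and not a bound site.

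The E-box is shown in 3 of its 8 genes, those of the sugar and hypoxia group, at both of its places in Ldha. The sterol element is shown in Hmgcs1, 1 of the 2 genes that hold it. They were picked because these letters belong to factors known to act on such genes. Whether such factors act here was not tested. Capitals mark the motif, and each line runs 5′ to 3′ on the strand of its gene.
Ldha, distal: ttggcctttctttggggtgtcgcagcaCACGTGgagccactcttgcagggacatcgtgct
Ldha, proximal: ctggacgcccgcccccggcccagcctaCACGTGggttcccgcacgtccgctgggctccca
Bnip3: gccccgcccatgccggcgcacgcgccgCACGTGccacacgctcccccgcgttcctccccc
Galk1: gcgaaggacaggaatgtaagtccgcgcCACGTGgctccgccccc
Hmgcs1: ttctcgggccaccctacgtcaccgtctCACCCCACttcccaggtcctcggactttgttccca

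In GRCm38.p6 the Ldha windows are chr7:46845632-46845691 and chr7:46845729-46845788 on the plus strand, inside the annotated span of the gene but before the start used in the promoter table. The Bnip3 window is chr7:138909582-138909641 and the Galk1 window chr11:116012720-116012763, both on the minus strand and upstream of the gene. The Hmgcs1 window is chr13:119690188-119690249 on the plus strand, upstream of the gene. Of the 4 genes, Hmgcs1 had no lower level at 48 h in CAF-1 OFF beyond its counting interval, whereas Ldha, Bnip3 and Galk1 did, with ratios of −0.41, −0.37 and −0.67. At that time 40 of the 41 genes had a ratio below 0, and a link between motif and course was not tested. In HOXA9 OFF at 96 h the 3 genes shown with an E-box ranged from 1.25-fold lower (1.05 to 1.49) for Bnip3 to 56.7-fold lower (33.0 to 106.9) for Galk1.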

How the data were processed

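Single-cell libraries were made with the 10x Chromium 3′ v2 kit, 1 per time point and arm, from sorted live cells. The authors aligned reads to GRCm38 with Cell Ranger (version 3.0.1 in the submitters' processing notes, where Scanpy 1.4.6 and Seurat 3.0.1 are also named) and deposited whole-number UMI counts per gene and barcode in 1 table of 7821 barcodes and 27998 genes. Barcodes name their library, and groups follow the labels. Cells with 200 to 6000 genes and at most 10% mitochondrial UMIs were kept (5872). No doublet caller was run.

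UMIs were summed per library and divided by its total (CPM). Log2 ratios carry 10 added CPM, which understates low genes, and folds do not. A library with 0 UMIs was set to 3 counts. CPM intervals are exact Poisson, share and fold intervals exact binomial (Clopper-Pearson), both at 95%. UMIs were thinned with a fixed seed to 1300 per cell. Ratios were compared with those of all 4789 genes that reached a mean of 20 CPM, and scripts were tested on simulated counts. With 1 library per group no test was run, and genes are called by size alone.

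The genes and the 32 lists (10 of markers, 22 of pathways) were chosen with earlier results of these data known. Each of the 41 is named. Values in 6 libraries are given for the 15 with the lowest ratio, for those in a fixed list and for those not at least 2-fold lower in HOXA9 OFF at 96 h, and for Mif, Galk1, Rapsn, Gm26917 and Slc45a3, singled out after their values were seen. Alternatives changed the added CPM (1, 50), scaling (edgeR TMM factors, median of ratios, totals less mitochondrial and ribosomal protein genes), cell filter (no limit, 5%), per-cell means, thinning, reference library, level and size. Python 3.11.15, numpy 2.4.6, scipy 1.17.1 and edgeR were used.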

Additional observations from a re-analysis of the deposited data

Results flagged for a closer look

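Opposite directions in the arms marked 4 values, each resting on 1 library per group, so that the difference between the arms was not tested. Gm26917 had a log2 ratio of −2.16 at 48 h in HOXA9 OFF and of 0.35 in CAF-1 OFF. Pex2, of peroxisomal import, was at 0.33 in HOXA9 OFF at 48 h and at 0.19 at 96 h, against −0.47 and −1.02 with the hairpin. Acot1, the acyl-CoA thioesterase, was at 0.26 in HOXA9 OFF and −1.08 in CAF-1 OFF at 96 h. The CAF-1 OFF ratios at 96 h chose these genes. Over 10 other settings, Gm26917 kept both signs at 48 h, as did Pex2, with HOXA9 OFF ratios of 0.07 to 0.59. At 96 h in HOXA9 OFF, the sign of Pex2 was positive in 8 of the 10 and that of Acot1 in 9.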

How the results depend on the processing

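The number of genes at least 2-fold lower in CAF-1 OFF at 96 h (41) moved most with the settings. It was 93 with 1 CPM added and 7 with 50 CPM, 21 with TMM factors, 70 with at most 5% mitochondrial UMIs, 85 with cells thinned to 1300 UMIs, 25 with a mean of at least 50 CPM and 421 with a 1.5-fold size. With the 5% limit and with thinning, 34 and 28 of the 41 were among them. Median-of-ratios factors (30), the smaller total (61), no mitochondrial limit (37), per-cell means (43), the other arm's reference (45) and no limit on level (52) kept it within 1.5 times. In HOXA9 OFF at 96 h, 34 of the 41 were lower, 21 with 50 CPM added, 20 of the 25 chosen at the higher level and 357 of the 421 chosen at 1.5-fold. The medians in HOXA9 OFF at 48 and 96 h became −2.12 and −3.28 with 1 CPM and −0.89 and −1.02 with 50 CPM. At 48 h of CAF-1 OFF their median stayed between −0.63 and −0.40. Of the genes at least 2-fold lower or higher in HOXA9 OFF, 60.2% were lower at 48 h and 68.8% at 96 h, 43.5% and 54.0% with TMM factors, and 47.0% and 51.4% with median-of-ratios factors. The causes were not tested. Among 1640 recomputed ratios of single genes, those called at 2-fold kept their sign, which says little because such ratios lie far from 0. After 48 h of the hairpin none of the 41 was called, so no ratio there could count. Smaller ratios did change sign under some settings. Without estradiol these were Acot1, Pex2, Bnip3 and Pfkl at 96 h, with Rapsn and Smim11 at 48 h. No paired analysis was possible because each group has 1 library and the labels carry no replicate numbers, and for the same reason no library could be left out within a group. Depth limits single genes most in HOXA9 OFF at 96 h, where 3 counts are 0.851 CPM.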
